A study of Homo sapiens with 68 samples.

Results

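Doxorubicin at its EC50 for 24 h was taken as the condition described here: 3 A673 cultures given 59.88 nM doxorubicin for 24 h and 6 cultures given the vehicle DMSO for 24 h, chosen by their sample titles, which are 9 of the 68 arrays of the series. A673 is an established cell line of Ewing sarcoma, a tumour of bone and soft tissue in children and young adults, and every array of the series came from this line, so all groups carry the same EWS/FLI fusion. The EC50 is the dose at which the viability of the cultures was 50% of that with vehicle, set by the study after 3 days of treatment. The other groups used for comparison were doxorubicin at 119.76 nM, 2 times its EC50, for 24 h (3 arrays), ARA-C (cytarabine, a nucleoside analog) at its EC50 of 0.17 uM for 24 h (3 arrays), and, for day 3, doxorubicin at 59.88 nM (3 arrays) with its own vehicle arrays (5 arrays). The series asked whether compounds that kill these cells also bring about the expression pattern of EWS/FLI loss, and the first day of treatment was its earliest time point.

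Doxorubicin is an anthracycline and a standard drug against Ewing sarcoma. It slides between the base pairs of DNA and traps topoisomerase II, the enzyme that cuts and rejoins both strands to untangle them, so that strand breaks persist, histones are lost from DNA and transcription of some genes is disturbed. Cells with such breaks hold up at the entry to mitosis through the ATM and ATR kinases, and cells with working p53 add a second brake through its target CDKN1A. EWS/FLI joins part of the EWSR1 protein to the DNA-binding end of FLI1 and acts as an abnormal transcription factor that switches some genes on and others off.

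Values are the signals that the authors' array software gave to each probe set, a group of short probes for 1 transcript, in arbitrary units, whose mean over all probe sets, controls included, was 1102 to 1103 on each of the 9 arrays compared. Changes are log2 differences, doxorubicin minus vehicle, of signals raised to at least 10, and a probe set is called changed where its adjusted p in the limma fit is under 0.05. A change is therefore relative to this mean, and a dim probe set can look less changed than it is.

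The 9 arrays correlated with each other at 0.964 to 0.984 over all probe sets, and between 19.7% and 20.5% of signals were under 10 in the doxorubicin arrays, against 19.9% to 21.3% in the vehicle arrays. The 3′ to 5′ ratio of the ACTB control probes, which rises as RNA is degraded or as copies become shorter, varied most within the doxorubicin group, at 1.95, 0.15 and 1.67 on the log2 scale in replicates 1, 2 and 3, against 0.51 to 1.10 in the 6 vehicle arrays (exact two-sided permutation test of the difference of 0.437, p = 0.321). For GAPDH the ratio was 0.51, -0.19 and 0.38 in the doxorubicin arrays, against 0.10 to 0.39 in the vehicle arrays (difference -0.00228, p = 1 by the same exact test). By the positions in the scan names, vehicle replicates 1 to 3 lay in row A of the array plate, as did the 3 doxorubicin arrays, and vehicle replicates 4 to 6 in row G. The comparison with vehicle was therefore also made against vehicle replicates 1 to 3 alone, which leaves 3 arrays in each group, and named genes whose calls this ended are given below. Markers of Ewing sarcoma, CD99, NKX2-2 and STEAP1 among 8 of 10 measured, summed to 48794 to 52536 in the doxorubicin arrays, against 44618 to 52691 in the vehicle arrays, and none of the 11 blood, 8 epithelial, 6 endothelial or 6 fibroblast markers measured was called changed. The labels do not say whether replicates were separate cultures grown on separate days, so p-values measure the spread between these arrays only.

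Of 22215 probe sets tested, 1241 (5.59%) were called changed, 632 higher (2.84%) and 609 lower (2.74%) after doxorubicin. The changes were of moderate size: 163 rose and 145 fell by over 2-fold, the median size among those called was 0.717 on the log2 scale, and the median change of all probe sets was 0.00. After a shift of every array to a common median, 457 were called higher and 766 lower. All 3 doxorubicin arrays lay outside the range of the 6 vehicle arrays in 564 of the 632 and 512 of the 609. Over all 22215 probe sets, 1236 lay wholly above and 1056 wholly below that range. The calls were made from the same values, so this separation is no separate support for them. With 1 probe set for each of 11882 genes, 443 rose (3.73%) and 388 fell (3.27%), and these shares are the background for every list below. The doxorubicin arrays did not move equally: the median deviation from the vehicle mean among the probe sets called lower was -0.77, -0.53 and -0.83 in replicates 1, 2 and 3, and replicate 2, the array with the low ACTB ratio, was the nearest to vehicle in 391 of 609. Among those called higher it was 0.68, 0.66 and 0.78. Without replicate 2 the count was 1995 (750 higher, 1245 lower), without replicate 1 it was 665, and without replicate 3 it was 490. The part of the ACTB ratio in the changes was not tested beyond a fit with that ratio as a covariate, which called 2538 probe sets (1584 higher, 954 lower), 1237 of them among the 1241.

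**Figure D1:**
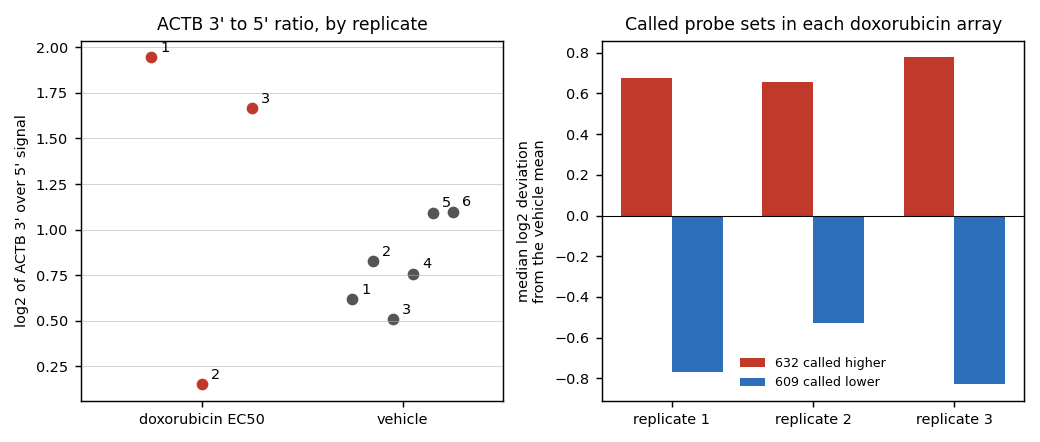
Left, log2 of the 3′ over the 5′ signal of the ACTB control probes in each array, doxorubicin EC50 (3 points) left of vehicle (6 points), numbered by replicate. Right, median log2 deviation from the vehicle mean of the 632 probe sets called higher (red) and the 609 called lower (blue) in each doxorubicin array; replicate 2 has the lowest ratio, 0.15, and the smallest deviation among the lower probe sets, -0.53.

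Among genes of mitosis the calls went down. Of 56 measured members of a list of 58 genes for the mitotic spindle, kinetochore, chromosome condensation and mitotic exit, 17 fell and 0 rose, 47 of 56 changes were negative and the median was -0.20, beside 0.00 over all genes. PLK1, the kinase that drives entry into and passage through mitosis, had signals of 1433, 2266 and 1196 in the doxorubicin arrays, against 2692 to 4507 (median 3854) in the vehicle arrays (log2 change -1.22 ± 0.19 SE, adjusted p = 0.000346). KIF20A, a kinesin needed for the last stage of cell division, was at 1945, 1861 and 1884 in the doxorubicin arrays, against 2827 to 3783 (median 3368) in the vehicle arrays (log2 change -0.81 ± 0.10 SE, adjusted p = 2.49e-05). In both genes the doxorubicin arrays lay wholly below the vehicle arrays, and for PLK1 replicate 2 was the highest of the 3.

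The centromere histone CENPA was at 1416, 2085 and 1776 in the doxorubicin arrays, against 2620 to 3711 (median 3115) in the vehicle arrays (log2 change -0.82 ± 0.15 SE, adjusted p = 0.00215). DLGAP5, a spindle protein, was the tightest of the group at 3016, 3025 and 2916 in the doxorubicin arrays, against 4322 to 5457 (median 5038) in the vehicle arrays (log2 change -0.72 ± 0.08 SE, adjusted p = 2.27e-05). The condensin subunit NCAPD2 was at 561, 1076 and 554 in the doxorubicin arrays, against 1149 to 1674 (median 1417) in the vehicle arrays (adjusted p = 0.00312), so that doxorubicin replicate 2 stood apart from the others. Falls were also measured for CENPE (-0.62), CENPF (-0.58), TPX2 (-0.61), KIFC1 (-0.65), KIF14 (-0.91), CDC20 (-0.58), the activator of the complex that ends mitosis, its partner UBE2C (-0.45), the spindle checkpoint kinase BUB1B (-0.39), ASPM (-0.56), HMMR (-0.56), GTSE1 (-0.49) and PRC1 (-0.46). CCNB1, the mitotic cyclin, had a change of -0.35, adjusted p = 0.0558, and CDC25C, the phosphatase that switches its kinase on, fell (-0.59, adjusted p = 0.0131). In a bulk sample, fewer cells in mitosis and less RNA per cell cannot be told apart. Without doxorubicin replicate 1 or replicate 3 the list had 11 or 10 falls, without replicate 2 it had 19, with all 68 arrays in the fit it had 4, and against vehicle replicates 1 to 3 alone it had 17.

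The promoters of these genes are shown because they share short motifs. Genes switched on in late G2 often carry a CHR element, TTTGAA, close to the start of transcription with CCAAT boxes upstream of it. RefSeq promoters of 300 bases, 250 before and 50 after the start on GRCh38.p14, were matched for 15 of the 17 genes that fell. CCAAT, read on both strands, stood in 13 of the 15, against 35.7% of 27305 promoters, TTTGAA, also on both strands, in 13 of 15, against 15.4%, and both together in 12 of 15, against 6.08%, with no overlap between matches. Over the whole list the counts were 34 and 35 of 49 matched promoters, so that members that were not called carry the motifs too. A match is a description of the letters and not a measured binding site. The promoters of PLK1 (chr16:23678639-23678938, plus strand), CENPA (chr2:26785806-26786105, plus strand) and GTSE1 (chr22:46296620-46296919, plus strand), 3 members that fell, read 5′ to 3′ with the CCAAT and TTTGAA matches of either strand in capitals:
PLK1: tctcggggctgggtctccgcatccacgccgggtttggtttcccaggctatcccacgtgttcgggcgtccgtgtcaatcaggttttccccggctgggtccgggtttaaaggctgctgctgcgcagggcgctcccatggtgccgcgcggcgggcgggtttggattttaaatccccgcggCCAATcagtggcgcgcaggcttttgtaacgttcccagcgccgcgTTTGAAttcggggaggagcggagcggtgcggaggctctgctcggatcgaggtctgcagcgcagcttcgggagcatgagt
CENPA: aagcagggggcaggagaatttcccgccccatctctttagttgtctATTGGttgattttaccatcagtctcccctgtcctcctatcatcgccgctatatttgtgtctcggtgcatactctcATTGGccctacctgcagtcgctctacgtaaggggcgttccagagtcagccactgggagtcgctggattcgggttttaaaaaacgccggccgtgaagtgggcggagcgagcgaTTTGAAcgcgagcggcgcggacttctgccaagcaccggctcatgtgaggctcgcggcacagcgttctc
GTSE1: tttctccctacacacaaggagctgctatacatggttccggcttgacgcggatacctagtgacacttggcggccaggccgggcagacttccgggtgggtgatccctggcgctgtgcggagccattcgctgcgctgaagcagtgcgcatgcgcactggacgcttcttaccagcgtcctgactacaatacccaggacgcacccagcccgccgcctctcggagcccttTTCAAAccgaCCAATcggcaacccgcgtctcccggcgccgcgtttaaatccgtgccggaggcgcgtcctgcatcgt

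In PLK1 the TTTGAA match began 29 bases before the start and the CCAAT match 73 bases before it. CENPA carried a pair of CCAAT matches, written here as the reverse complement ATTGG, upstream of its TTTGAA match, and GTSE1 had both motifs within 26 bases of the start.

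The targets of the drug were not called. TOP2A, topoisomerase II alpha, had signals of 2609, 2477 and 2446 in the doxorubicin arrays, against 2833 to 4080 (median 3257) in the vehicle arrays, all 3 below the vehicle range but not called (-0.41, adjusted p = 0.131). TOP2B, the beta form, was at 3529, 3380 and 4784 in the doxorubicin arrays (0.19, adjusted p = 0.309), and TOP1 differed by -0.02, adjusted p = 0.959. Of 20 measured genes for the targets, export and reduction of anthracyclines, 1 rose: CBR3, a carbonyl reductase that turns doxorubicin into its alcohol, at 390, 330 and 388 in the doxorubicin arrays, against 186 to 261 (median 198) in the vehicle arrays (log2 change 0.82 ± 0.14 SE, adjusted p = 0.000781). The exporter ABCB1 stayed near the floor at 46.6, 8.7 and 30.1 in the doxorubicin arrays, against 4.37 to 27.3 (median 13.3) in the vehicle arrays (0.68, adjusted p = 0.641).

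Targets of p53 were measured for 29 of 37 listed genes, of which 3 rose (10.3%, beside 3.73% of all genes) and 0 fell, with a median of 0.24. TP53I3, a quinone oxidoreductase, was at 340, 527 and 288 in the doxorubicin arrays, against 116 to 230 (median 175) in the vehicle arrays (log2 change 1.15 ± 0.22 SE, adjusted p = 0.00318). GADD45B, a stress protein, rose at 781, 677 and 694 in the doxorubicin arrays, against 396 to 604 (median 475) in the vehicle arrays (0.56, adjusted p = 0.0186), and RPS27L rose by 0.27 (adjusted p = 0.0204). The best known targets were not called against all 6 vehicle arrays. CDKN1A, the inhibitor of cyclin-dependent kinases, was at 837, 739 and 735 in the doxorubicin arrays, against 443 to 742 (median 589) in the vehicle arrays (0.42, adjusted p = 0.154), where vehicle replicates 1 to 3 read 449, 481 and 443 and replicates 4 to 6 read 716, 696 and 742. Against replicates 1 to 3 alone, which lay in row A with the doxorubicin arrays, the change of CDKN1A was 0.75 (adjusted p = 0.00713) and passed the test, and with the part of the array plate as a block its adjusted p was 0.00286. By the same comparison with replicates 1 to 3 the rises of GADD45B (adjusted p = 0.233) and RPS27L (adjusted p = 0.0938) did not pass, and the change of GADD45B was 0.32. GDF15 was at 203, 288 and 169 in the doxorubicin arrays, against 93.5 to 194 (median 132) in the vehicle arrays (0.69, adjusted p = 0.237) and MDM2, which marks p53 for destruction, at 75.6, 134 and 11.2 in the doxorubicin arrays, against 66.9 to 98.2 (median 77.2) in the vehicle arrays (-0.72, adjusted p = 0.502), in which the doxorubicin arrays spanned both sides of the vehicle range. BBC3, BAX, FAS and SESN1 had adjusted p of 0.413, 0.947, 1 and 0.813.

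Among 43 measured genes of break signalling and repair, 2 rose and 3 fell. ATR, the kinase that answers stalled forks, was at 1857, 1635 and 2294 in the doxorubicin arrays, against 1185 to 1481 (median 1298) in the vehicle arrays (log2 change 0.53 ± 0.10 SE, adjusted p = 0.00174), and FANCI, of the crosslink repair pathway, at 5754, 5065 and 5256 in the doxorubicin arrays, against 3484 to 4133 (median 3615) in the vehicle arrays (log2 change 0.53 ± 0.07 SE, adjusted p = 0.000129). The falls were XRCC3, of homologous recombination (-0.96, adjusted p = 0.0202), CDC25C and H2AX, the histone variant whose phosphorylation marks breaks. H2AX fell on 2 of its 4 probe sets, to 5074, 4037 and 4921 on the brighter one in the doxorubicin arrays, against 7253 to 8162 (median 7812) in the vehicle arrays (-0.74, adjusted p = 2.8e-05), and to 55.1, 105 and 27.6 on a dimmer one in the doxorubicin arrays, against 194 to 550 (median 376) in the vehicle arrays (-2.67, adjusted p = 0.000383). The sizes of these 2 falls were far apart, and the other probe sets of H2AX were not called. XRCC3 missed the threshold against vehicle replicates 1 to 3 (adjusted p = 0.0545).

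DNA replication genes gave 1 rise and 5 falls of 52 measured: GINS3 rose (0.65, adjusted p = 0.000585), and MCM4 and MCM7, subunits of the replicative helicase, fell by 0.76 and 0.35, ORC2 by 0.60, POLD2 by 0.38 and the licensing inhibitor GMNN by 0.30. Without doxorubicin replicate 1 or replicate 3 only 1 of these falls was called. Of 31 genes of the G1 to S control, RB1 (0.53, adjusted p = 0.014) and its relative RBL2 (0.59, adjusted p = 0.027) rose and none fell, but neither was called against vehicle replicates 1 to 3 (adjusted p = 0.149 and 0.236), nor were ORC2 (adjusted p = 0.147) and GMNN (adjusted p = 0.154). CCND1 and CCNE1 differed by 0.01 (adjusted p = 1) and 0.18 (adjusted p = 0.518).

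Few histone genes were called, 2 of 55 measured higher and 3 lower, near the shares of all genes. H2BC5 was at 1721, 2184 and 1623 in the doxorubicin arrays, against 737 to 1113 (median 1002) in the vehicle arrays (log2 change 0.97 ± 0.14 SE, adjusted p = 0.000253). H2AC6 was at 905, 988 and 1063 in the doxorubicin arrays, against 516 to 700 (median 555) in the vehicle arrays (log2 change 0.76 ± 0.16 SE, adjusted p = 0.00494). Both lay outside the vehicle range. The linker histone H1-10 moved the other way at 632, 1083 and 440 in the doxorubicin arrays, against 1391 to 2116 (median 1975) in the vehicle arrays (log2 change -1.46 ± 0.20 SE, adjusted p = 0.000129), as did the dim H3C7 (-1.53, adjusted p = 0.0162). In all, 2 of 55 measured histone genes rose (3.64%) and 3 fell (5.45%), beside 3.73% and 3.27% of all genes. The median change of the list was 0.13, and probes for such similar genes may share signal. H3C7 was not called against vehicle replicates 1 to 3 (adjusted p = 0.0856) or with a floor of 32. Its change ran from -3.38 to -0.02 over the alternative analyses.

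The stress-induced transcription factors NR4A3, ATF3 and JUN rose. A list of 35 measured genes of the immediate early response had 4 higher and 3 lower, with a median change of 0.25. NR4A3, an orphan nuclear receptor, was at 139, 117 and 115 in the doxorubicin arrays, against 19.5 to 62.3 (median 43.7) in the vehicle arrays (log2 change 1.63 ± 0.36 SE, adjusted p = 0.00858). ATF3, a factor induced by many stresses, was at 262, 394 and 272 in the doxorubicin arrays, against 107 to 185 (median 137) in the vehicle arrays (log2 change 1.11 ± 0.21 SE, adjusted p = 0.00218). JUN, the core AP-1 subunit, was at 1566, 1340 and 1302 in the doxorubicin arrays, against 636 to 905 (median 691) in the vehicle arrays (log2 change 0.98 ± 0.17 SE, adjusted p = 0.000904). All 3 sets of doxorubicin arrays stood above the highest vehicle array. SPRY4, which dampens receptor tyrosine kinase signalling, SRF and FOSL1 fell by 0.64, 0.63 and 0.59, and none of these 3 falls passed against vehicle replicates 1 to 3 (adjusted p = 0.105, 0.0565 and 0.0565).

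DDIT3 (CHOP), the factor that couples endoplasmic reticulum stress to cell death, was at 1120, 1361 and 1088 in the doxorubicin arrays, against 425 to 717 (median 575) in the vehicle arrays (log2 change 1.06 ± 0.13 SE, adjusted p = 2.49e-05). The rest of the ATF4 and unfolded protein list did not rise with it: of 39 measured, 2 rose, ATF3 and DDIT3, and 5 fell, the chaperones HSPA5 (-0.35), PDIA4 (-0.43) and SDF2L1 (-0.72, adjusted p = 0.000186), the amino acid transporter SLC7A5 (-0.53, adjusted p = 0.00409) and the tRNA synthetase AARS1 (-0.49, adjusted p = 0.0342). The median was -0.13. The 5 falls became 2 without doxorubicin replicate 1 and 1 without replicate 3, and to 1 against vehicle replicates 1 to 3, where SLC7A5 (adjusted p = 0.0565), PDIA4 (adjusted p = 0.0579) and AARS1 (adjusted p = 0.26) missed the threshold.

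Of 28 measured heat shock genes, 8 fell and 0 rose, with a median of -0.11. HSPA1B, a stress-inducible HSP70, was at 446, 453 and 490 in the doxorubicin arrays, against 953 to 1239 (median 1111) in the vehicle arrays (log2 change -1.26 ± 0.12 SE, adjusted p = 9.73e-07). HSPA1A was at 3981, 2707 and 3545 in the doxorubicin arrays, against 5445 to 7078 (median 6136) in the vehicle arrays (log2 change -0.88 ± 0.15 SE, adjusted p = 0.000761), and HSPA1L at 40.2, 45.3 and 45.8 in the doxorubicin arrays, against 68.1 to 150 (median 117) in the vehicle arrays (-1.24, adjusted p = 0.0373). The HSP70 copies are nearly identical in sequence, so their probes cannot be taken as separate measurements.

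The co-chaperone DNAJB1 was at 1384, 1881 and 1548 in the doxorubicin arrays, against 2615 to 2807 (median 2771) in the vehicle arrays (log2 change -0.78 ± 0.16 SE, adjusted p = 0.00395). STIP1, which joins HSP70 to HSP90, fell by 0.73, HSF1, the factor that drives the group, by 0.71, the mitochondrial chaperonin HSPE1 by 0.39 and BAG3 by 0.29. The abundant chaperones HSPA8 and HSP90AA1 were not called. HSPA8 was at 19620, 16101 and 20027 in the doxorubicin arrays, against 17226 to 22526 (median 19126) in the vehicle arrays (-0.08, adjusted p = 0.813). HSP90AA1 was at 22002, 14865 and 21220 in the doxorubicin arrays, against 15688 to 21811 (median 18803) in the vehicle arrays (0.01, adjusted p = 1). The 8 falls became 3 without doxorubicin replicate 1, 4 without replicate 3, 5 without vehicle replicate 1, 2 or 4, and 3 with all 68 arrays in the fit. GAANNTTC, the core of a heat shock element, read on both strands, stood in 11 of 26 matched promoters of the whole list, against 6.87% of all promoters. Among the genes that fell it stood in 3 of 7 matched promoters, those of HSPA1A, HSPA1B and HSPA1L. That of HSPA1B (chr6:31827488-31827787, plus strand) is given because its gene had the smallest adjusted p of the list, with the match, which began 105 bases before the start, in capitals:
HSPA1B: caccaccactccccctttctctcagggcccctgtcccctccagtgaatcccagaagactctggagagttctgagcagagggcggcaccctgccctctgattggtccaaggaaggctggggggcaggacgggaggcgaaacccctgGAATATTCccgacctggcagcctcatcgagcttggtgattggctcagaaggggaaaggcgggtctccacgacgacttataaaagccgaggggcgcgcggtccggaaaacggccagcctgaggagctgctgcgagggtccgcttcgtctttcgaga

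Cholesterol and fatty acid synthesis was the list with the largest share of falls. Of 23 measured genes of 28, 10 fell and 0 rose, and the median was -0.63. FASN, which makes palmitate, was at 988, 1353 and 806 in the doxorubicin arrays, against 2407 to 3394 (median 2636) in the vehicle arrays (log2 change -1.43 ± 0.16 SE, adjusted p = 8.98e-06), with no overlap. SREBF1, the factor that switches on lipid synthesis genes, was at 301, 238 and 206 in the doxorubicin arrays, against 316 to 586 (median 470) in the vehicle arrays (-0.88, adjusted p = 0.00434), and ACACA, which supplies FASN, fell by 0.58. In the sterol branch, MVK (-1.07, adjusted p = 0.0149), SQLE (-0.73, adjusted p = 0.0448), IDI1 (-0.63, adjusted p = 0.00548), MSMO1 (-0.59, adjusted p = 0.0319), HSD17B7 (-0.74, adjusted p = 0.000732) and DHCR7 (-0.99, adjusted p = 0.00166), which makes cholesterol in the final step, fell.

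Part of this list also differed between the vehicle arrays. DHCR7 was at 752, 700 and 620 in the doxorubicin arrays, against 1072, 1172 and 1015 in vehicle replicates 1 to 3 and 2017, 1500 and 1660 in replicates 4 to 6. MSMO1 was at 1717, 1706 and 1908 in the doxorubicin arrays, against 2083, 2111 and 2021 in vehicle replicates 1 to 3 and 3427, 3435 and 3513 in replicates 4 to 6. HMGCS1, the entry enzyme, was at 646, 523 and 678 in the doxorubicin arrays, against 631, 698 and 594 in vehicle replicates 1 to 3, which these overlap, and 1531, 1307 and 1395 in replicates 4 to 6 (-0.63, adjusted p = 0.141), and INSIG1, the sterol sensor, showed the same split (adjusted p = 0.132). FASN had no such split, with 2407 to 3394 (median 2636) over the 6 vehicle arrays. Against vehicle replicates 1 to 3 alone, 5 genes of the list were called lower, SREBF1 (adjusted p = 0.069), MVK (adjusted p = 0.122) and SQLE (adjusted p = 0.215) not among them, and the part of the array plate position was not tested further. Without doxorubicin replicate 3 the count was 4, and with all 68 arrays in the fit it was 3. Neither TCACNCCAC, a sterol element, nor the E-box CACGTG, read on both strands, stood in any of the 8 matched promoters of the genes that fell, against 1.15% and 7.43% of all promoters.

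**Figure D2:**
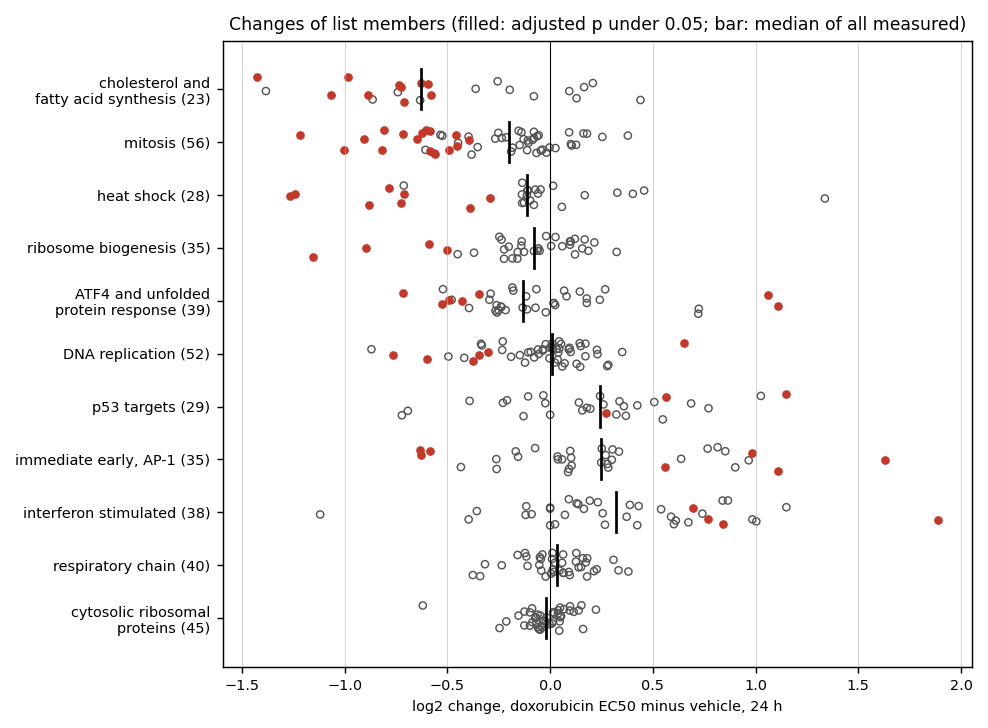
Log2 change, doxorubicin EC50 minus vehicle after 24 h, for each measured gene of the lists named on the left (number measured in brackets), filled where the adjusted p was under 0.05 and with a bar at the median. All filled points of mitosis (17), heat shock (8) and cholesterol and fatty acid synthesis (10) lie below 0.

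Of 35 measured genes for ribosome production, 4 fell (11.4%, beside 3.27% of all genes) and 0 rose. The median of the list was -0.08, and 13 changes were positive. UBTF, the factor that opens ribosomal RNA genes, was at 322, 394 and 265 in the doxorubicin arrays, against 595 to 852 (median 744) in the vehicle arrays (log2 change -1.15 ± 0.17 SE, adjusted p = 0.000181). BOP1 was at 2327, 2202 and 1657 in the doxorubicin arrays, against 3278 to 4333 (median 3851) in the vehicle arrays (log2 change -0.90 ± 0.12 SE, adjusted p = 5.45e-05). BYSL (-0.59) and PES1 (-0.50) also fell, the last not against vehicle replicates 1 to 3 (adjusted p = 0.0861). None of the 45 ribosomal protein genes and none of the 40 genes of the respiratory chain was called. Of 34 genes of the NRF2 and glutathione response, GSTM3 (0.69, adjusted p = 0.041) and the thioredoxin TXN (0.31, adjusted p = 0.0397) rose, and both missed the threshold against vehicle replicates 1 to 3 (adjusted p = 0.412 and 0.0735), where GSTM3 changed by 0.32.

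Interferon-stimulated genes gave 4 rises and 0 falls of 38 measured, with a median of 0.32. IFIH1, a sensor of double-stranded RNA, was at 96.4, 118 and 102 in the doxorubicin arrays, against 5.82 to 45.7 (median 34.7) in the vehicle arrays (log2 change 1.89 ± 0.44 SE, adjusted p = 0.011). IFIT5, which binds RNA ends, was at 942, 786 and 633 in the doxorubicin arrays, against 407 to 487 (median 461) in the vehicle arrays (0.77, adjusted p = 0.0013). The class I molecules HLA-E (log2 change 0.84 ± 0.12 SE, adjusted p = 0.000197) and HLA-B (0.70, adjusted p = 0.0418) rose, by probe sets that may read other class I genes as well. Among 32 genes of the NF-kB response, PTX3, a secreted pattern recognition protein, was at 165, 170 and 143 in the doxorubicin arrays, against 30.3 to 67 (median 43.3) in the vehicle arrays (log2 change 1.88 ± 0.30 SE, adjusted p = 0.00055), TNFAIP8 rose (0.68, adjusted p = 0.00777) and RELA, the main activating subunit, fell (-0.62, adjusted p = 0.00973). CXCL8, the neutrophil chemokine and 1 of the genes of the study's screen, was at 806, 831 and 1189 in the doxorubicin arrays, against 357 to 855 (median 602) in the vehicle arrays and was not called (0.72, adjusted p = 0.0735), but against vehicle replicates 1 to 3 alone its change was 1.15 (adjusted p = 0.00569). In that comparison HLA-B (adjusted p = 0.177) and TNFAIP8 (adjusted p = 0.105) were not called, and IFIH1 was not with the part of the array plate as a block (adjusted p = 0.0632).

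Of 35 measured apoptosis genes, 1 rose (2.86%) and 2 fell (5.71%), beside 3.73% and 3.27% of all genes. CASP9, the initiator caspase of the mitochondrial pathway, was at 518, 523 and 537 in the doxorubicin arrays, against 303 to 393 (median 324) in the vehicle arrays (log2 change 0.65 ± 0.12 SE, adjusted p = 0.00167). The survival factor BCL2 was at 847, 924 and 1034 in the doxorubicin arrays, against 1163 to 1502 (median 1341) in the vehicle arrays (-0.51, adjusted p = 0.0158). The death receptor TNFRSF1A fell by 0.50. The fall of BCL2 was not called against vehicle replicates 1 to 3 (-0.38, adjusted p = 0.182).

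ADM and NDRG1, both known for their response to low oxygen, rose. ADM, the vasodilator peptide adrenomedullin, was at 977, 1243 and 1152 in the doxorubicin arrays, against 327 to 530 (median 386) in the vehicle arrays (log2 change 1.47 ± 0.17 SE, adjusted p = 1.7e-05). NDRG1 was at 446, 385 and 389 in the doxorubicin arrays, against 138 to 186 (median 159) in the vehicle arrays (log2 change 1.32 ± 0.17 SE, adjusted p = 5.41e-05). Of the 30 measured genes of glycolysis and hypoxia, 4 rose and 1 fell, 13 changes were negative and the median was 0.01, so that the list as a whole lay at the median of all genes. P4HA1, a collagen prolyl hydroxylase, and SLC2A1, the glucose transporter, also rose, by 0.40 and 0.60, and the glycolytic enzyme PKM fell (-0.52, adjusted p = 0.000365). SLC2A1 was the 1 gene called in both directions, with its brighter probe set at 970, 755 and 905 in the doxorubicin arrays, while a dim one, at 5.91, 6.86 and 4.63 there and thus under the floor, was lower. Neither P4HA1 nor SLC2A1 was called against vehicle replicates 1 to 3 (adjusted p = 0.0759 and 0.165).

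Among the 15 largest rises, TYRP1, a melanosome enzyme, led with 320, 119 and 207 in the doxorubicin arrays, against 12.3 to 36.8 (median 28.1) in the vehicle arrays (log2 change 2.99 ± 0.48 SE, adjusted p = 0.000545). RASL12, a small GTPase, was at 89.6, 80.5 and 94.5 in the doxorubicin arrays, against 2.74 to 32.9 (median 19.6) in the vehicle arrays (log2 change 2.15 ± 0.47 SE, adjusted p = 0.00713), JAM2, a junctional adhesion molecule, at 55.5, 49.4 and 67.4 in the doxorubicin arrays, against 5.16 to 26 (median 12.9) in the vehicle arrays (log2 change 1.97 ± 0.40 SE, adjusted p = 0.00459), and GREM1, a BMP antagonist, at 90.9, 119 and 110 in the doxorubicin arrays, against 10.7 to 56.5 (median 31.9) in the vehicle arrays (1.97, adjusted p = 0.00758). ATP8A2 was at 98.8, 57.5 and 70.6 in the doxorubicin arrays, against 5.54 to 29.4 (median 7.06) in the vehicle arrays (2.62, adjusted p = 0.00472). In each the 3 doxorubicin arrays lay above all vehicle arrays, but vehicle signals were low, so that the fold rests on values near the floor of 10.

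PMCH had 87.9, 355 and 120 in the doxorubicin arrays, so that replicate 2 carried much of its change (2.00, adjusted p = 0.0362), and without that array it was not called. AGO2, the core of the RNA silencing complex, rose on a dim probe set (1.92, adjusted p = 0.0011) with 118, 106 and 200 in the doxorubicin arrays, while a brighter one changed by 0.15, and APLP2 rose on 1 probe set (1.93, adjusted p = 0.0145) and on none of its 6 other probe sets. The other rises in this group, ACSL5 (acyl-CoA synthetase), PLAGL1, ELAVL3, SYN2, APOBEC3G, MARCHF3 and IFIH1, lay between 1.89 and 1.95 on the log2 scale. Of the 15, ATP8A2 (adjusted p = 0.0584), PMCH (adjusted p = 0.174), GREM1 (adjusted p = 0.0764), ACSL5 (adjusted p = 0.0621), APLP2 (adjusted p = 0.0937), SYN2 (adjusted p = 0.0517) and MARCHF3 (adjusted p = 0.209) were not called against vehicle replicates 1 to 3.

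Rises with the smallest p, a set chosen after the values were seen, were at higher signals. LPL, lipoprotein lipase, was at 401, 383 and 479 in the doxorubicin arrays, against 98.2 to 171 (median 133) in the vehicle arrays (log2 change 1.71 ± 0.18 SE, adjusted p = 7.82e-06). YPEL5, 1 of the brightest, was at 8825, 7174 and 8262 in the doxorubicin arrays, against 3159 to 4962 (median 3905) in the vehicle arrays (log2 change 1.05 ± 0.12 SE, adjusted p = 1.7e-05). TUFT1 (0.95, adjusted p = 1.21e-05), TRIL (1.41, adjusted p = 1.7e-05), the haem synthesis enzyme UROD (0.86, adjusted p = 1.7e-05), SUPT7L (0.92, adjusted p = 2.35e-05), HECA (0.79, adjusted p = 2.35e-05) and FRG1 (0.67, adjusted p = 2.49e-05) completed the set with ADM and DDIT3.

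CER1, a secreted antagonist of Nodal, BMP and Wnt, had the largest fall. Its signals were 2.9, 6.92 and 8.05 in the doxorubicin arrays, against 162 to 408 (median 304) in the vehicle arrays, so that the doxorubicin arrays were all under the floor of 10 (log2 change -4.84 ± 0.49 SE, adjusted p = 3.44e-06). The size follows the floor, at -3.16 with a floor of 32 and -5.72 with a floor of 1. CTNND2, delta-catenin, a neuronal relative of the junction proteins, had the smallest adjusted p of the fit, with signals of 82.6, 70.4 and 73.4 in the doxorubicin arrays, against 366 to 475 (median 404) in the vehicle arrays (log2 change -2.44 ± 0.17 SE, adjusted p = 3.28e-08).

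WNT5A, a ligand of the beta-catenin-independent Wnt pathway, fell on both probe sets, at 83.4, 98.5 and 87.6 in the doxorubicin arrays, against 306 to 485 (median 395) in the vehicle arrays on one (log2 change -2.12 ± 0.21 SE, adjusted p = 2.71e-06) and with a smaller change on the other (adjusted p = 2.52e-06). KCNN1, a calcium-activated potassium channel, was at 210, 82.1 and 129 in the doxorubicin arrays, against 464 to 614 (median 561) in the vehicle arrays (log2 change -2.06 ± 0.25 SE, adjusted p = 2.35e-05), and POU3F1, a neural transcription factor, at 53.1, 130 and 78.8 in the doxorubicin arrays, against 361 to 491 (median 412) in the vehicle arrays (log2 change -2.34 ± 0.39 SE, adjusted p = 0.000693). None of these doxorubicin arrays reached the vehicle range. WNT5A, CTNND2, KCNN1, POU3F1 and CER1 stayed called in all 25 alternative analyses.

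In other large falls the doxorubicin arrays disagreed. EPHB1, an ephrin receptor, was at 3.36, 111 and 2.57 in the doxorubicin arrays, against 87.7 to 199 (median 167) in the vehicle arrays (-2.75, adjusted p = 0.004), VAV1, an exchange factor of blood cells, at 12.4, 106 and 26.4 in the doxorubicin arrays, against 126 to 197 (median 157) in the vehicle arrays (-2.24, adjusted p = 0.00414), and RALGDS at 63.7, 154 and 14.5 in the doxorubicin arrays, against 175 to 274 (median 243) in the vehicle arrays (-2.13, adjusted p = 0.00615). Replicate 2 was the highest of the 3 in each and for EPHB1 lay inside the vehicle range. FGFR4 (-2.58, adjusted p = 0.01), RCN3 (-2.20, adjusted p = 0.00452) and MYL9 (-2.03, adjusted p = 0.00848) had the same order. The ACTB ratio was lowest in that replicate. With that ratio as a covariate these genes kept their calls, and its part in them was not tested further.

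Of the falls with the smallest p, chosen after the values were seen, PTPRK, a receptor tyrosine phosphatase, was at 1304, 1261 and 1553 in the doxorubicin arrays, against 2628 to 3262 (median 2907) in the vehicle arrays (log2 change -1.09 ± 0.10 SE, adjusted p = 1.21e-06). PLVAP, the diaphragm protein of vessel walls, was at 915, 1298 and 648 in the doxorubicin arrays, against 2474 to 3530 (median 2849) in the vehicle arrays (log2 change -1.68 ± 0.17 SE, adjusted p = 2.52e-06), NOL4 at 84.1, 170 and 152 in the doxorubicin arrays, against 455 to 537 (median 492) in the vehicle arrays (log2 change -1.92 ± 0.20 SE, adjusted p = 6.76e-06), and SLC19A1, the folate carrier that also brings methotrexate into cells, at 762, 503 and 580 in the doxorubicin arrays, against 1340 to 1718 (median 1559) in the vehicle arrays (log2 change -1.37 ± 0.15 SE, adjusted p = 1.21e-05). All 4 had doxorubicin arrays far below the vehicle range.

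**Figure D3:**
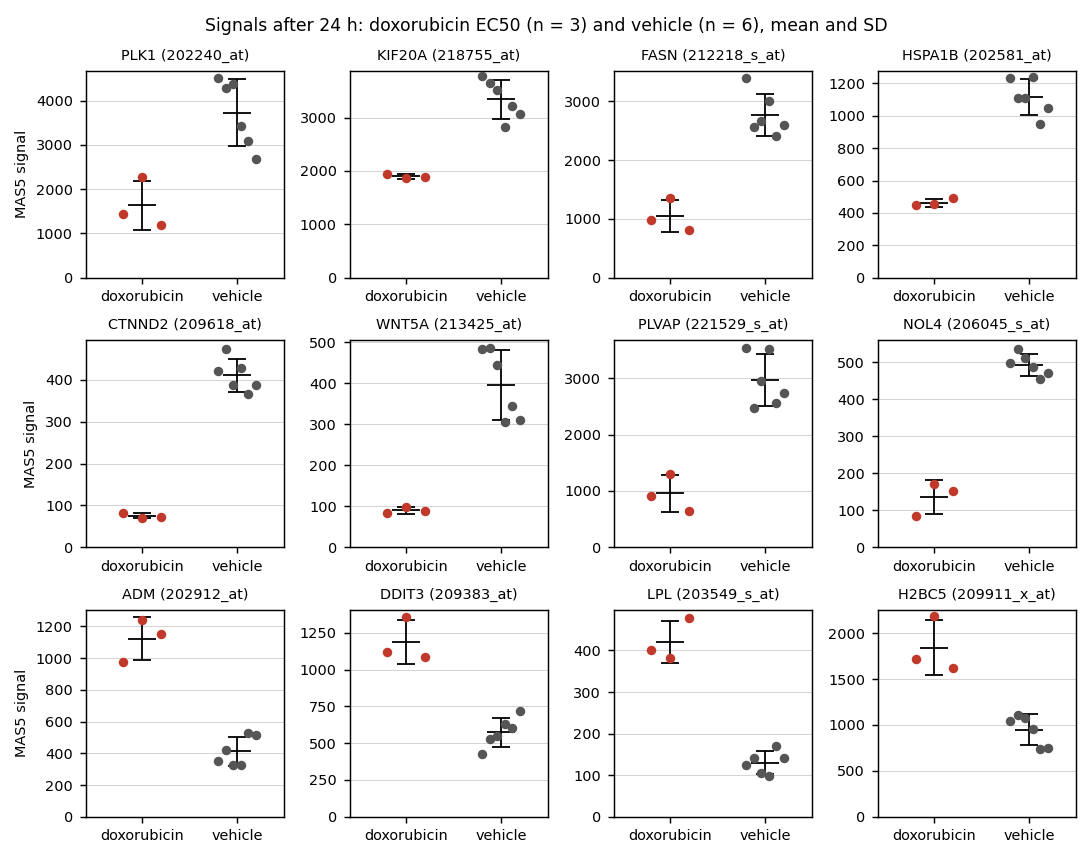
MAS5 signal of 12 genes on linear axes from 0, each panel with the doxorubicin arrays (3 points) left of the vehicle arrays (6 points) and the mean and SD as a bar. In the panels of CTNND2, WNT5A, FASN and HSPA1B every doxorubicin point lies below every vehicle point, and in that of ADM every doxorubicin point lies above.

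Genes of developmental signalling moved both ways, with 4 rises and 4 falls of 40 measured in the TGF-beta, BMP, Notch, Wnt and Hedgehog pathways. Besides WNT5A, SKIL, a repressor of SMAD signalling (-1.45, adjusted p = 0.0122), NOTCH3 (-1.22, adjusted p = 0.041) and TGFB1 (-0.75, adjusted p = 0.0143) fell. The ligands TGFB2 at 45.2, 56.8 and 50 in the doxorubicin arrays, against 14.6 to 29 (median 25.8) in the vehicle arrays (1.17, adjusted p = 0.0442) and JAG1 at 1316, 1822 and 1665 in the doxorubicin arrays, against 912 to 1124 (median 1023) in the vehicle arrays (0.64, adjusted p = 0.00323) rose, with the Wnt effectors TCF7L2 and LEF1. The calls of SKIL (adjusted p = 0.0782), NOTCH3 (adjusted p = 0.129), TGFB1 (adjusted p = 0.0646) and TGFB2 (adjusted p = 0.103) ended with vehicle replicates 1 to 3 as the comparison.

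The matrix and contractile list showed 4 rises and 2 falls of 42. The fibrillar collagens COL11A1 (log2 change 1.22 ± 0.27 SE, adjusted p = 0.00751) and COL5A1 (0.53, adjusted p = 0.00515), the crosslinking enzyme LOXL2 (0.90, adjusted p = 0.0185) and the membrane protease MMP14 (0.81, adjusted p = 0.0403) rose, and the smooth muscle proteins TAGLN at 637, 1027 and 513 in the doxorubicin arrays, against 1188 to 1992 (median 1669) in the vehicle arrays (-1.18, adjusted p = 0.0175) and MYL9 fell. Of 31 neuronal genes, NEFH and SNAP25, for neurofilament and synaptic vesicle fusion, rose, and GAP43 (-0.66, adjusted p = 0.000877) and SCG2 (-0.50, adjusted p = 0.0373) fell. The lysosomal proteases CTSB and CTSA changed by 0.60 and -0.46. Of all these, COL5A1 (adjusted p = 0.052), MMP14 (adjusted p = 0.214), NEFH (adjusted p = 0.135), SNAP25 (adjusted p = 0.211), SCG2 (adjusted p = 0.209), CTSB (adjusted p = 0.128) and CTSA (adjusted p = 0.0625) were not called against vehicle replicates 1 to 3.

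The EWS/FLI programme, the subject of the series, was read through the parent genes and through lists. Of the parent genes of the fusion, EWSR1 was at 3878, 4452 and 4367 in the doxorubicin arrays, against 4315 to 5117 (median 4947) in the vehicle arrays (-0.19, adjusted p = 0.169). FLI1 was at 2434, 2856 and 2634 in the doxorubicin arrays, against 3007 to 3736 (median 3247) in the vehicle arrays. All 3 lay below the vehicle range, but FLI1 was not called (-0.33, adjusted p = 0.184). NKX2-2, a main target of EWS/FLI, was at 4722, 5186 and 4546 in the doxorubicin arrays, against 4882 to 5885 (median 5445) in the vehicle arrays (-0.16, adjusted p = 0.224). The probes do not separate the fusion from the normal transcripts of its parents. Of the study's probe sets that rise on knockdown of EWS/FLI, 7 of 66 rose (10.6%), 2 fell and the median was 0.22, and of those that fall on knockdown, 8 of 77 fell (10.4%), 2 rose and the median was -0.11. The background was 2.84% higher and 2.74% lower. The study selected the lists on knockdown arrays and kept genes whose direction of change held in cells with inducible EWS/FLI. Its own gene set enrichment test of the 66, with permutation, was not significant for this dose at 24 h and was on day 3. The counts given here are of single calls and were not tested as a set.

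Those in the direction of knockdown were, on the rising side, PTX3, OPTN (1.57, adjusted p = 0.000726), SAT1 (1.15, adjusted p = 0.00238), PXDC1 (0.98, adjusted p = 0.0247), ALCAM (0.42, adjusted p = 0.00892) and JUN on another probe set than the one above (1.21, adjusted p = 5.45e-05), with a probe set that has no symbol here. On the falling side they were NOL4, UBTF, TPSAB1 (-1.40, adjusted p = 0.021), POU3F1 on another probe set than the one above (-0.98, adjusted p = 0.0148), DLX5 (-0.82, adjusted p = 0.00668), PTGER3 (-0.58, adjusted p = 0.00614) and RUBCNL (-0.37, adjusted p = 0.00157), again with 1 without a symbol. PGF (-0.74, adjusted p = 0.000443) and S100A11 (-0.49, adjusted p = 0.0382) fell although they rise on knockdown, and GAS1 (0.54, adjusted p = 0.0465) and CSPG5 (1.30, adjusted p = 0.00385) rose although they fall on it. JUN, SAT1 and others of these are known to respond to stress of many kinds.

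The screening signature of the study gave 1 call against all vehicle arrays. PDGFA, the growth factor, was at 105, 108 and 102 in the doxorubicin arrays, against 10.3 to 79.6 (median 47.9) in the vehicle arrays (log2 change 1.58 ± 0.46 SE, adjusted p = 0.0437), the only one of 7 measured genes of the rising part to be called, beside a median of 0.72, and none of the 6 falling genes was called. It lost its call in 11 of 25 alternative analyses, the part of the array plate as a block among them (adjusted p = 0.0951). From lists of targets made in other work, NPY, a neuropeptide activated by EWS/FLI, was at 748, 640 and 764 in the doxorubicin arrays, against 334 to 467 (median 387) in the vehicle arrays (log2 change 0.85 ± 0.13 SE, adjusted p = 0.000348) and VRK1 rose (0.33, adjusted p = 0.0139), of 28 activated genes measured, with none lower. Of 28 repressed genes, ZYX, a focal adhesion protein, was at 962, 1130 and 742 in the doxorubicin arrays, against 1934 to 2374 (median 2083) in the vehicle arrays (log2 change -1.19 ± 0.18 SE, adjusted p = 0.000372) and fell with S100A11, which was not called against vehicle replicates 1 to 3 (adjusted p = 0.0913), and none rose.

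The 2 doses share their vehicle arrays and were compared directly. The arrays of 59.88 nM lay in row A of the array plate and those of 119.76 nM in row B. Their log2 ACTB ratios were 1.95, 0.15 and 1.67 at 59.88 nM and 1.26, 1.94 and 2.13 at 119.76 nM. The part of the row in the differences between doses was not tested. Between 59.88 nM and 119.76 nM, 117 probe sets (0.527%) differed, 32 higher and 85 lower at the EC50. NDRG1 was at 446, 385 and 389 at 59.88 nM and 900, 834 and 732 at 119.76 nM (EC50 minus 2 times EC50, log2 change -1.01 ± 0.20 SE, adjusted p = 0.0195). CBR3 (-0.72, adjusted p = 0.0391), DDIT3 (-0.65, adjusted p = 0.042) and HLA-E (-0.66, adjusted p = 0.0346) were likewise lower at the EC50. Of the genes that fell at the EC50, NOL4 and SLC19A1 fell less there, with NOL4 at 84.1, 170 and 152 at 59.88 nM and 67, 51.7 and 71.4 at 119.76 nM (1.05, adjusted p = 0.042), and SLC19A1 at 762, 503 and 580 at 59.88 nM and 272, 292 and 380 at 119.76 nM (0.96, adjusted p = 0.015).

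Among the largest differences between the doses were probe sets far dimmer than others of the same gene. A dim probe set of TXN was at 887, 834 and 890 at 59.88 nM and 268, 368 and 349 at 119.76 nM (1.42, adjusted p = 0.0103). Its vehicle arrays were at 298 to 384. A dim one of HSP90B1 was at 779, 1653 and 677 at 59.88 nM and 254, 367 and 291 at 119.76 nM (1.67, adjusted p = 0.0242), with vehicle arrays at 326 to 512. For both, the arrays of 59.88 nM lay above the vehicle range and those of 119.76 nM did not. RPAIN (1.64), a dim probe set of NBN (1.35) and SEC22B (1.30) were also higher at the EC50. RCN3 (-2.33), CEL (-1.87), TMEM163 (-1.78), ATP8B1 (-1.67) and ATN1 (-1.62) were lower there. Of these, RCN3 and ATN1 changed by -2.20 and -1.57 at the EC50 against the vehicle arrays. PLK1 and FASN did not pass the test between doses (adjusted p = 0.325 and 1). A fit of these 6 arrays alone called 8 probe sets and leaving out 1 array of the comparison gave 20 to 187, so the count between doses is poorly fixed.

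ARA-C is built into new DNA and stops its synthesis, and at its EC50 of 0.17 uM for 24 h it differed from doxorubicin at 1220 probe sets (5.49%), 622 higher and 598 lower with doxorubicin. WNT5A was the clearest: 83.4, 98.5 and 87.6 in the doxorubicin arrays, against 943, 785 and 841 in the ARA-C arrays (log2 change -3.25 ± 0.24 SE, adjusted p = 2.95e-08). Against vehicle its change was -2.12 with doxorubicin and 1.14 with ARA-C. CTNND2 was at 82.6, 70.4 and 73.4 in the doxorubicin arrays, against 413, 424 and 334 in the ARA-C arrays (log2 change -2.37 ± 0.20 SE, adjusted p = 1.49e-07), and PTPRK at 1304, 1261 and 1553, against 3409, 4122 and 3410 (log2 change -1.41 ± 0.12 SE, adjusted p = 1.37e-07). KCNN1 (-2.37, adjusted p = 3.23e-05), NOL4 (-1.91, adjusted p = 4.65e-05), PLVAP (-1.51, adjusted p = 5.88e-05), GPR17 (-2.88, adjusted p = 0.000579) and CER1 (-3.94, adjusted p = 0.00026) were also lower with doxorubicin.

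JUN was at 1566, 1340 and 1302 in the doxorubicin arrays, against 656, 634 and 621 in the ARA-C arrays (1.13, adjusted p = 0.00132). ADM was at 977, 1243 and 1152, against 417, 390 and 400 (1.48, adjusted p = 0.000104), and DDIT3 (0.84, adjusted p = 0.0017) and H2BC5 (1.03, adjusted p = 0.000854) were higher with doxorubicin too. The largest differences upward, STMN2 (2.63), VDAC3 (2.54), VCAN (2.45), NDST1 (2.45) and a dim probe set of PGK1 (2.43), were at low signals, and in VDAC3 and VCAN doxorubicin replicate 2 was the highest.

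Of the 56 mitosis genes, 14 were higher and 1 lower with doxorubicin than with ARA-C. The background of this comparison was 3.33% of all genes higher and 3.32% lower. Against the vehicle arrays, which both share, 17 fell with doxorubicin, where 3.27% of all genes fell, and 33 fell and 3 rose with ARA-C, where 8.59% of all genes fell and 7.34% rose. CENPA was at 1416, 2085 and 1776 in the doxorubicin arrays, against 1267, 1117 and 1050 in the ARA-C arrays (0.61, adjusted p = 0.0451), and PLK1 at 1433, 2266 and 1196, against 1193, 1206 and 1081 (0.44, adjusted p = 0.254). A fit of these 6 arrays alone called 75 probe sets, beside 1220 where the spread was shared over all 24 arrays of 24 h.

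The response at 24 h was compared with that to the same dose on day 3 through the difference of the 2 changes, both taken over time-matched vehicle arrays. It differed at 2001 probe sets (9.01%), 1085 with the higher change at 24 h and 916 with the higher change on day 3. Some rises of the first day were larger on day 3. PTX3 changed by 1.88 at 24 h and 4.84 on day 3, where its signals were 1404, 1376 and 1238 in the doxorubicin arrays, against 27, 29.5, 47.9, 63.4 and 92.7 in the vehicle arrays (difference -2.96, adjusted p = 1.72e-05). NPY changed by 0.85 and 3.43 (difference -2.58, adjusted p = 1.24e-12), H2BC5 by 0.97 and 3.18 (difference -2.21, adjusted p = 6.02e-12), ADM by 1.47 and 3.23 (difference -1.76, adjusted p = 0.000679), and CDKN1A, not called at 24 h against all vehicle arrays, by 0.42 and 1.74, with day 3 signals of 1594, 1922 and 1726 in the doxorubicin arrays, against 461, 496, 500, 550 and 609 in the vehicle arrays (difference -1.32, adjusted p = 0.000132).

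The falls of mitosis genes at 24 h were not matched on day 3. There, 12 of the 56 were higher and 5 lower than vehicle, against 0 and 17 at 24 h. Over all genes, 11.3% were higher and 13.3% lower on day 3, against 3.73% and 3.27% at 24 h. The difference of the changes was called in 20 with the lower change at 24 h and in 3 with the higher, beside 5.09% and 6.18% of all genes. KIF20A changed by -0.81 at 24 h and 0.73 on day 3 (difference -1.54, adjusted p = 2.15e-08), and PLK1 by -1.22 and 0.16, with day 3 signals of 3352, 3618 and 2995 in the doxorubicin arrays, against 2463, 2756, 2931, 3108 and 3673 in the vehicle arrays (difference -1.38, adjusted p = 7.16e-05). TOP2A changed by -0.41 and 0.78 (difference -1.19, adjusted p = 0.00017).

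CTNND2 changed by -2.44 at 24 h and -2.44 on day 3, and CER1 by -4.84 and -5.25, in neither of which the difference passed the test (adjusted p = 1 and 0.845). The cholesterol list had 10 falls at 24 h (3.27% of all genes) and 19 on day 3 (13.3% of all genes), with 0 rises at either time. PLVAP and KCNN1, in contrast, were nearer to vehicle on day 3, with -1.68 and -0.21 for PLVAP (difference -1.47, adjusted p = 0.000262) and -2.06 and -0.20 for KCNN1 (difference -1.86, adjusted p = 3.34e-05).

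The genes repressed by EWS/FLI in other work, of which 0 of 28 were higher and 2 lower at 24 h, had 19 higher and 0 lower on day 3, where 11.3% of all genes were higher and 13.3% lower. ZYX changed by -1.19 at 24 h and 0.63 on day 3 (difference -1.81, adjusted p = 1.87e-05). The largest differences toward day 3 were in genes that were dim at 24 h, CLDN5, a tight junction protein (0.09 and 4.99), PI3 (-0.98 and 3.52), TM4SF1 (-0.20 and 4.29), the lipid carrier APOE (-0.45 and 3.96) and FGF18 (-0.78 and 3.49). Those toward 24 h were in dim probe sets, B4GALNT1 (1.18 and -2.39), GK6P (1.85 and -1.48), HLF (-0.67 and -3.68), XYLB (0.55 and -2.40) and a dim one of MVK (0.76 and -2.12), while the brightest probe set of MVK changed by -1.07 and -1.30. The doxorubicin arrays lay in row A of the array plate at 24 h and in rows C and D on day 3, and the vehicle arrays in rows A and G at 24 h and in rows C and G on day 3. The part of the row in these differences was not tested.

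**Figure D4:**
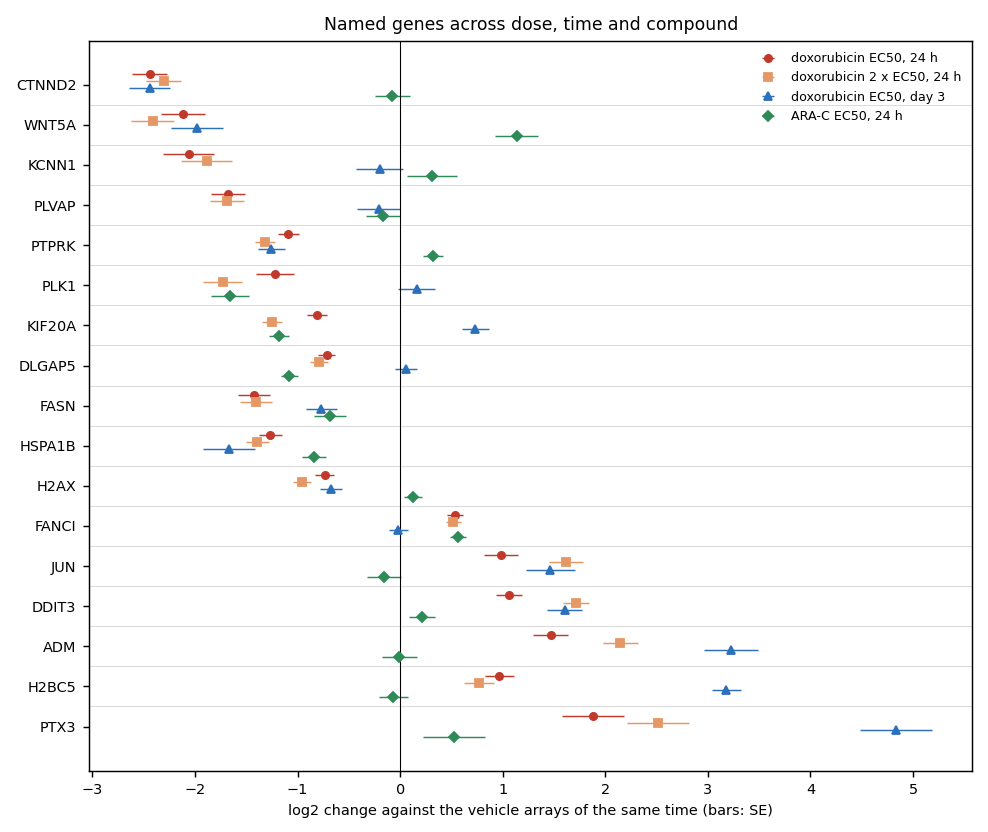
Log2 change against the vehicle arrays of the same time, with its SE as a bar, for 17 genes in 4 treatments: doxorubicin EC50 for 24 h (circles), 2 times EC50 for 24 h (squares), EC50 on day 3 (triangles) and ARA-C EC50 for 24 h (diamonds). CTNND2 lies at -2.44, -2.31 and -2.44 in the doxorubicin groups in that order and at -0.08 with ARA-C, and WNT5A, below 0 in those groups, is at 1.14 with ARA-C.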

How the data were processed

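A673 cells were profiled on Affymetrix high-throughput human arrays in plates of 96 wells after Trizol extraction and amplification. The deposited values are linear MAS5 signal intensities, per the labels. How the authors scaled these arrays and which genome build they used is not given in the sources used here. The mean over all probe sets, controls included, was 1094 to 1103 on the 68 arrays. Of 22930 probe sets, 715 controls were left out and 22215 tested; 19230 had 1 gene symbol in the platform annotation, 125 several and 2860 none, and only those with 1 are named. No column was left unmapped to a sample (0).

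Signals were raised to at least 10 and taken to log2. Group means were fitted with limma 3.58.1 in R 4.3.3 (lmFit, eBayes with intensity trend) over the 24 arrays of 24 h in 7 groups, with 17 residual degrees of freedom, and Benjamini-Hochberg adjustment over all probe sets; 67 arrays, all but 1 puromycin array of day 5, served the comparison with day 3. The fit was tested on simulated data. Array number limits the precision.

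Named genes were a fixed set of drug, p53 and EWS/FLI genes, the 15 largest rises and falls with every doxorubicin array beyond the vehicle mean and a mean above the 40th percentile, up to 6 called members a list, and the 5 largest differences each way in the other comparisons; the 10 smallest p each way were added after values were seen. Lists used the brightest probe set a gene, and the members and lists were chosen with earlier results of these data known. Promoters came from RefSeq. Alternatives were the normalization, floor, cap, dim filter, arrays fitted, plate part, replicate block, variance trend, array weights and leaving out each array.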

Additional observations from a re-analysis of the deposited data

Results flagged for a closer look

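In 8 of 143 named probe sets tested, 1 of the 6 vehicle arrays stood apart from the others, with a gap to its nearest neighbour over the whole range above Dixon's critical value of 0.625. The highest vehicle array stood out for ATP8A2 (gap over range 1.000 with signals under 10 raised to 10, replicate 2, 29.4 against 8.46 in the next array), MARCHF3 (0.817, replicate 2), TRIL (0.812, replicate 2), JUN (0.727, replicate 1) and SUPT7L (0.684, replicate 1), and the lowest for PMCH (0.837, replicate 5), TUFT1 (0.690, replicate 5) and GMNN (0.637, replicate 2). Chance gives about 1 such array in 20 groups tested.

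The change under doxorubicin differed between 24 h and day 3, by the test of the difference itself, for 61 of the probe sets named. Values in brackets are the log2 change at 24 h minus that on day 3. In 35 of them the changes at the 2 times had opposite signs. The change was the lower one at 24 h for TOP2A (-1.19), PLK1 (-1.38), FHL2 (-1.70), RCN3 (-3.35), MYL9 (-2.81), CDC25C (-0.76), CENPA (-0.97), KIF20A (-1.54), DLGAP5 (-0.78), SPRY4 (-1.16), FOSL1 (-1.95), TNFRSF1A (-0.63), HSF1 (-1.16), ZYX (-1.81), TAGLN (-1.28), PKM (-0.64), GPR17 (-3.21), PI3 (-4.50), TM4SF1 (-4.49), APOE (-4.41) and FGF18 (-4.27), and the higher one at 24 h for TOP2B (0.63), RPS27L (0.49), FANCI (0.55), GINS3 (1.21), TNFAIP8 (1.82), IFIT5 (1.86), TXN, bright probe set (0.69), NEFH (2.16), NDST1 (2.50), B4GALNT1 (3.58), GK6P (3.32), XYLB (2.95), MVK, dim probe set (2.88) and TRIL (1.59).

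In 18 the changes had the same sign and the one on day 3 was larger in size. Among these, both were positive for CDKN1A (-1.32), CXCL8 (-1.81), FCGRT (-1.30), CBR3 (-1.55), GADD45B (-1.14), H2BC5 (-2.21), H2AC6 (-1.67), PTX3 (-2.96), HLA-B (-1.38), NPY (-2.58), COL11A1 (-1.74), COL5A1 (-1.32), JAG1 (-1.37), ADM (-1.76), STMN2 (-3.76) and CLDN5 (-4.90), and both were negative for ORC2 (0.97) and HLF (3.01). In 8 the change at 24 h was the larger in size, with both positive for TXN, dim probe set (1.26) and FRG1 (0.50) and both negative for EPHB1 (-2.08), POU3F1 (-1.93), KCNN1 (-1.86), SLC7A5 (-0.51), FASN (-0.66) and PLVAP (-1.47). The doxorubicin arrays lay in row A of the array plate at 24 h and in rows C and D on day 3, while row G held vehicle arrays of both times, and the part of the row was not tested.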

How the results depend on the processing

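The share of the 22215 probe sets called changed by doxorubicin, 5.59%, became 9.2% with quantile normalization, 10.4% with array quality weights, 1.18% with all 68 arrays in the fit, 3.19% (252 higher, 457 lower) against the vehicle arrays of rows A to F, and 11.4% with the ACTB ratio as a covariate, which was chosen after the data were seen. Leaving out 1 array gave 2.21% (without doxorubicin replicate 3) to 8.98% (without doxorubicin replicate 2, 37.6% of calls higher), and 2.99% without doxorubicin replicate 1. The share of calls that were higher, 50.9% in the main analysis, was 37.4% after a shift to a common median, 34% with the plate part as a block and 35.5% against rows A to F. For doxorubicin and vehicle arrays with the same replicate number, deviations from the mean of 3 arrays correlated at -0.02, -0.29 and -0.10. Means of so few arrays constrain such values, so they cannot show whether those arrays shared a culture day. The replicate block called 3.03% (227 higher, 446 lower), 566 of these probe sets among the 1241.

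The 117 probe sets between doses became 314 with quantile normalization, 412 with the ACTB covariate, 8 with these 6 arrays alone and 187 without an ARA-C array whose low signals were raised, and 20 to 187 with 1 array left out. The 1220 between doxorubicin and ARA-C became 2024, 1938 and 75 under the same first 3 settings and 417 to 1359 with 1 array left out. The 2001 between 24 h and day 3 became 710 with all 68 arrays and 1401 to 1954 with 1 array left out. Of 143 named probe sets called, 39 kept the call in all 25 alternatives and 3 in the 24 that could be run for them, 56 lost it in 1 to 5 and 45 in more, and none changed sign. Of these 143, 91 kept the call against rows A to F, where only 3 vehicle arrays remained, and 105 with the plate part as a block, while CDKN1A and CXCL8 gained it in both. The causes were not tested. Signals under the floor of 10 carry no order, so changes of dim genes are limited by the array.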
